A study of Mus musculus with 4 samples.

Results

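Death receptors and their ligands were followed in the transcriptome of fetal liver LSK cells through 8 genes, taken by name from the 39186 genes of the deposited table, and all 8 were found there. They are the ligands *Fasl* and *Tnfsf10*, the receptors *Fas*, *Tnfrsf10b*, *Tnfrsf1a* and *Tnfrsf1b*, the adaptor *Fadd* and the inhibitor *Cflar*. The samples were 2 *Pich*-KO and 2 *Pich*-WT RNA libraries of C57BL/6 mice, none with a treatment named in the labels. LSK cells are Lin-Sca-1+c-Kit+ cells, a sorted fraction rich in hematopoietic stem cells. PICH is a DNA translocase of mitosis, and the *Pich*-KO allele is a small TALEN-made deletion at the start of its second exon that is predicted to leave a truncated peptide. The allele is constitutive, so every tissue of the embryo carries it and not only the blood cells. The labels do not give the age of the embryos or say whether a sample pooled several embryos, and the study's methods describe fetal livers taken at E14.5. Where samples are not known to be separate embryos, p-values measure only the spread between these samples, which in *Pich*-KO may be technical. The *Pich*-WT samples differed in their reads on Y-linked genes, given below, so they did not come from the same embryo or pool.

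Death receptors are members of the tumor necrosis factor (TNF) receptor superfamily with a death domain inside the cell. When FAS binds FAS ligand, or the TRAIL receptor binds TRAIL, the adaptor FADD recruits caspase-8 and starts apoptosis, and the FLIP protein made from *Cflar* holds caspase-8 in check. TNF receptor 1 mainly starts NF-kappaB signaling and turns to cell death when that signaling is blocked, and TNF receptor 2 has no death domain. In blood formation FAS and its ligand are known for removing lymphocytes, and TNF receptors for their effect on stem cell maintenance.

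The sequence in front of 4 of the 6 members searched is shown. They are the 3 with the largest fold changes and 1 chosen because it held matches to both motifs searched. Promoters were matched by symbol for 7 of the 8 members in RefSeq sequence of build GRCm38.p6, with none for *Tnfrsf10b*. The window of *Tnfrsf1a* lay inside the gene and was not searched, which left 6. Each line ends at the base before the start of the gene. The windows are chr19:34290409-34290658 on the plus strand for *Fas*, chr1:161788496-161788745 on the minus strand for *Fasl*, chr3:27316827-27317027 on the plus strand for *Tnfsf10* and chr4:145246871-145247120 on the minus strand for *Tnfrsf1b*. Capitals mark 2 motifs of interferon-responsive promoters, searched on both strands after the members' values had been seen. The first is the core of the interferon-stimulated response element, GAAA and again GAAA with any 2 bases between them, and the second is the gamma-activated site, TTCNNNGAA.
*Fas*: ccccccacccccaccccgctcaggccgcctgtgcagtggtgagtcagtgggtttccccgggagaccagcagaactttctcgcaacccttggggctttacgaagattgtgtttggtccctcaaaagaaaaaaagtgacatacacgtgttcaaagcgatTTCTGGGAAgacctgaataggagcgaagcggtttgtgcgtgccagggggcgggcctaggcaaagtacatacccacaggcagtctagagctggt
*Fasl*: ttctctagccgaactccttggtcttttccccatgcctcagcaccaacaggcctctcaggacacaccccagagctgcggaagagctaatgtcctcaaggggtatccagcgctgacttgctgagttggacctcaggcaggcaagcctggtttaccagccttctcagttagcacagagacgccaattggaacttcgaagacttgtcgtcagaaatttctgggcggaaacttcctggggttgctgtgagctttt
*Tnfsf10*: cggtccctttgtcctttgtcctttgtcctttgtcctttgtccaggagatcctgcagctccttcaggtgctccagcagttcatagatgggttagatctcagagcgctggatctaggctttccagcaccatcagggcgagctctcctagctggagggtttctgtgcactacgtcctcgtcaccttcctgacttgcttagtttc
*Tnfrsf1b*: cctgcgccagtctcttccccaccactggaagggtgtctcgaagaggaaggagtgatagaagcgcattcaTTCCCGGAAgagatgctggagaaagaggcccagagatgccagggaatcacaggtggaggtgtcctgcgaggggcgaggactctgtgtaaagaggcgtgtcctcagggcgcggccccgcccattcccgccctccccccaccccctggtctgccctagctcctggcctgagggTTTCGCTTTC
The gamma-activated site letters were found in front of *Fas*, from base -93 to -85 relative to the start, and in front of *Tnfrsf1b*, from -181 to -173. The response element letters were found, on the other strand and as TTTCGCTTTC, in front of *Tnfrsf1b* from -10 to -1. Over the 32851 promoters of the same reference, cut to the same 250 bases, 2.98% held the first motif and 7.02% the second. No match to either was found in the *Fasl* and *Tnfsf10* windows, nor in those of *Fadd* and *Cflar*, which are not shown. The *Tnfsf10* window is shorter, because 49 of its 250 bases lie inside the gene as the table gives it. These matches describe letters only.

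The libraries held 14703215 to 20933919 reads on genes, and values are given as normalized counts, the reads on a gene divided by 1 size factor per sample. The PICH gene, listed as *Ercc6l*, had 1142 and 1232 normalized counts in *Pich*-KO samples 1 and 2, and 772 and 661 in *Pich*-WT samples 1 and 2, so its mRNA does not check the labels of an allele that is still transcribed. *Pich*-WT sample 2 had 0 reads on 4 Y-linked genes, where the other samples had 1607 to 2848. It therefore held no sign of male cells, and the *Pich*-WT samples were not repeats of the same material. The markers that define the sort were present in every sample, *Kit* at 2328 to 4447 and *Ly6a*, which encodes Sca-1, at 901 to 3586 normalized counts. Markers of several other cell types, though not of B cells, moved with the groups. The summed macrophage markers were 9269 to 10594 in *Pich*-KO and 61262 to 63019 in *Pich*-WT, with 13 of 14 lower and *Vsig4* listed at 0 in *Pich*-KO sample 2. T and NK cell markers summed to 873 to 1015 against 3542 to 4262 (7 of 14 lower, with *Cd8a* at 0 in a sample), endothelial markers to 1505 to 2497 against 19634 to 28955 (7 of 7 lower), and erythroid markers to 28645 to 31453 against 118243 to 155998 (7 of 8 lower). Granulocyte and monocyte markers summed to 65695 and 124749 in *Pich*-KO samples 1 and 2 and to 16969 to 19790 in *Pich*-WT. Of these, 4 of 12 were called higher, and 8 of 12 overlapped between the groups. B cell markers summed to 1328 to 2406 against 1770 to 2150, with 0 of 8 called, hepatoblast markers to 2495 to 3065 against 4351 to 4906 (5 of 7 lower), and LSK markers to 20591 to 32513 against 28821 to 30485 (1 of 12 higher, 5 lower). The part of these cells in the members' differences was not tested, and in bulk RNA fewer cells of a type and less RNA per cell cannot be told apart.

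**Figure D1:**
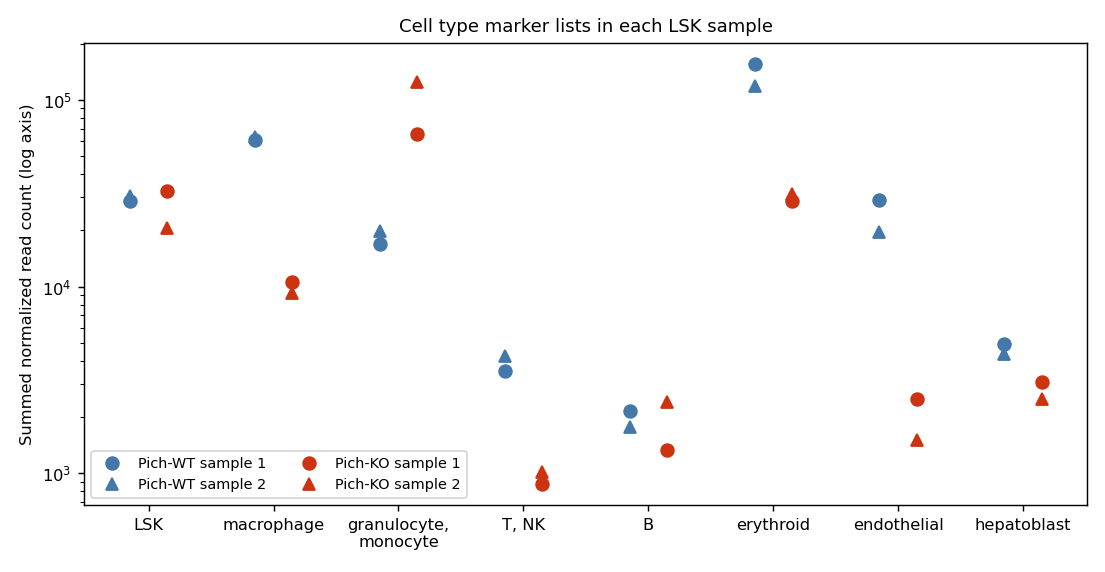
Summed normalized counts of 8 lists of cell type markers (log axis) in each of the 2 *Pich*-KO and 2 *Pich*-WT samples, 1 point per sample. The macrophage, T and NK, endothelial and erythroid sums are lower in both *Pich*-KO samples, the granulocyte and monocyte sum is higher in both, and the B cell points overlap.

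The death receptor genes were compared between *Pich*-KO and *Pich*-WT LSK cells to see how transcripts of this pathway stood in cells without PICH. In *Pich*-KO cells *Fasl*, *Fas*, *Tnfrsf1a* and *Tnfrsf1b* fell, and no member rose at an adjusted p of 0.05. The remaining 4 members did not pass the test, of which *Tnfsf10*, *Tnfrsf10b* and *Cflar* had positive and *Fadd* a negative log2 fold change. Values were tested as log2(normalized count + 1) with limma, among 32428 genes whose mean was 1 or more, with Benjamini-Hochberg adjustment over all of them. Every log2 fold change below, also called the fitted change, is *Pich*-KO over *Pich*-WT on this scale, on which changes of genes with few counts come out too small. Of all genes tested, 9.6% were called lower and 7.58% higher, against 4 and 0 of the 8 members. The members were chosen with earlier results of these data known, so the shares and medians here are a description and not a test of the set. The quasi-likelihood test of edgeR, run on recovered reads, called 4 members lower and 0 higher, beside 20.7% lower and 18.6% higher of 16608 genes. The median log2 fold change was -0.45 over the members and 0.02 over all genes tested. The groups did not overlap for 7 of the 8 members, 5 lower and 2 higher in *Pich*-KO, where 27.2% of all genes tested lay apart and lower, 28.9% apart and higher, and 56.1% either way. With 2 samples against 2 an exact permutation test of a single gene cannot go below p = 0.333, so each call draws on information about the spread from other genes, and with 1 prior variance for all genes limma called 0 of the 8 members (4 had an unadjusted p under 0.05) and 0 of all genes.

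**Figure D2:**
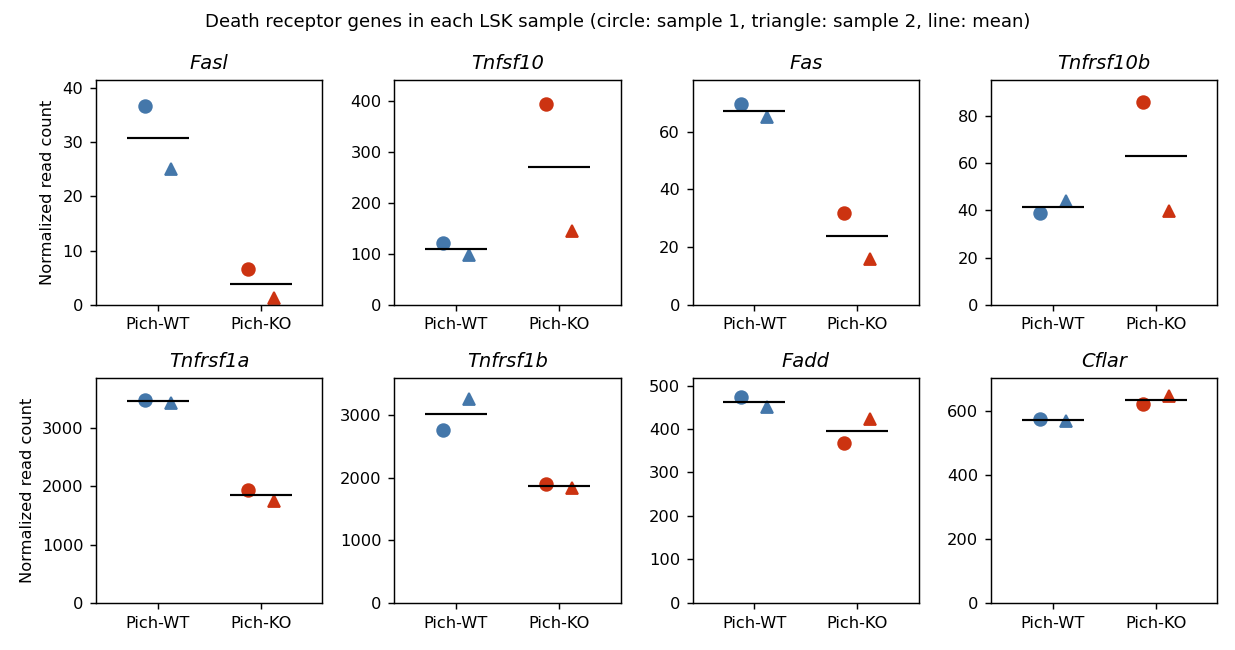
Normalized read counts of the 8 members, 1 panel per gene with a linear axis from 0, with a circle for sample 1 and a triangle for sample 2 of *Pich*-WT (blue) and *Pich*-KO (red) and a line at the group mean. *Tnfrsf1a*, *Tnfrsf1b*, *Fas* and *Fasl* lie lower in both *Pich*-KO samples, and *Tnfrsf10b* is the member whose groups overlap.

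Among the ligands, *Fasl* (ENSMUSG00000000817, chr1:161780689-161788495 on GRCm38, minus strand), which encodes FAS ligand, had 6.54 and 1.14 normalized counts in *Pich*-KO samples 1 and 2, and 36.7 and 25 in *Pich*-WT samples 1 and 2. Both *Pich*-KO values lay below both *Pich*-WT values. The means were 3.84 ± 3.82 (SD, n = 2) and 30.9 ± 8.29 (SD, n = 2), and the fitted change was -2.96 (SE 0.70, limma adjusted p = 0.0231). These values rest on 6 and 1 reads in *Pich*-KO against 47 and 25 in *Pich*-WT, so that the normalized level was 8.11-fold higher in *Pich*-WT with an exact 95% interval of 3.74 to 20.9 that covers counting error only. Leaving out *Pich*-KO sample 1 gave -3.87 and leaving out *Pich*-KO sample 2 gave -2.05 (limma). FAS ligand is a product of cytotoxic T and NK cells, whose markers had a 4.13-fold higher sum in *Pich*-WT. The lineage antibodies named in the study's methods bind CD4, CD8, Gr-1, B220 and Ter119. That gate would remove T cells carrying CD4 or CD8, and it holds no antibody made for NK cells. The part of T and NK cells in the *Fasl* values was not tested. The adjusted p of *Fasl* was 0.0615 with a pseudocount of 0.1 and 0.0704 with no filter on the mean (limma), and without *Pich*-WT sample 1 it was 0.0923 (edgeR).

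*Tnfsf10* (ENSMUSG00000039304, chr3:27317028-27342427, plus strand), which encodes TRAIL, had 394 and 144 normalized counts in *Pich*-KO samples 1 and 2, and 120 and 98.0 in *Pich*-WT samples 1 and 2. The groups did not overlap, but *Pich*-KO sample 2 stood close to *Pich*-WT sample 1. The *Pich*-KO mean was 269 ± 176 (SD, n = 2) and the *Pich*-WT mean 109 ± 15.8 (SD, n = 2), and the fitted change was 1.13 (SE 0.42, limma adjusted p = 0.122). It missed the threshold with edgeR too (adjusted p = 0.0584) and passed it with DESeq2 (adjusted p = 0.00502). DESeq2 called 6.69% of all 39186 genes higher, a share that also counts genes without an adjusted p. *Pich*-KO sample 1 decided the size of the *Tnfsf10* change, since the log2 fold change was 0.41 without that sample and 1.85 without *Pich*-KO sample 2 (limma). TRAIL is known as an interferon-induced ligand.

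Among the receptors, *Fas* (ENSMUSG00000024778, chr19:34290659-34327770, plus strand), the receptor of FAS ligand, had 31.6 and 15.9 normalized counts in *Pich*-KO samples 1 and 2 and 69.6 and 65.0 in *Pich*-WT samples 1 and 2. The higher *Pich*-KO value lay far below the lower *Pich*-WT value. The means were 23.8 ± 11.1 (SD, n = 2) and 67.3 ± 3.22 (SD, n = 2), and the fitted change was -1.54 (SE 0.41, limma adjusted p = 0.0370). The reads behind these values were 43 over both *Pich*-KO samples and 154 over both *Pich*-WT samples. The adjusted p was 0.0610 with a pseudocount of 0.1 and 0.0800 with no filter (limma), and with edgeR it was 0.0582 without *Pich*-KO sample 2, 0.101 without *Pich*-WT sample 1 and 0.0773 without *Pich*-WT sample 2.

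*Tnfrsf10b* (ENSMUSG00000022074, chr14:69767472-69784411, plus strand), the death-inducing TRAIL receptor of the mouse, had 86.2 and 39.8 normalized counts in *Pich*-KO samples 1 and 2, and 39.1 and 44.0 in *Pich*-WT samples 1 and 2. *Pich*-KO sample 2 lay between the *Pich*-WT samples. The means of 63.0 ± 32.8 (SD, n = 2) and 41.5 ± 3.48 (SD, n = 2) gave a log2 fold change of 0.49 (SE 0.41, limma adjusted p = 0.510), which was -0.06 without *Pich*-KO sample 1. Of the 8 members, 6 had more normalized counts in *Pich*-KO sample 1 than *Pich*-KO sample 2, and *Fadd* and *Cflar* had fewer. In *Pich*-WT, 6 members also had more in sample 1 than in sample 2, and there *Tnfrsf10b* and *Tnfrsf1b* had fewer. Between the *Pich*-KO samples the LSK marker sum was higher in sample 1 (32513 against 20591) and the granulocyte and monocyte sum was lower (65695 against 124749).

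The receptors of TNF had the highest counts of the members. *Tnfrsf1a* (ENSMUSG00000030341, chr6:125349362-125362484, plus strand), which encodes TNF receptor 1, had 1935 and 1748 normalized counts in *Pich*-KO against 3481 and 3429 in *Pich*-WT. Its group means of 1842 ± 132 (SD, n = 2) and 3455 ± 36.6 (SD, n = 2) lay far apart against the spread within each group. The log2 fold change was -0.91 (SE 0.10, limma adjusted p = 0.000783), and it ran from -0.98 to -0.84 when each sample was left out in turn. With edgeR the call held without any 1 of the 4 samples, with an adjusted p of at most 0.00314.

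*Tnfrsf1b* (ENSMUSG00000028599, chr4:145213463-145246870, minus strand), which encodes TNF receptor 2, had 1904 and 1832 normalized counts in *Pich*-KO against 2763 and 3250 in *Pich*-WT. The *Pich*-KO samples were close together and both lay below the *Pich*-WT samples, which differed more from each other. The means were 1868 ± 50.9 (SD, n = 2) and 3006 ± 345 (SD, n = 2), and the fitted change was -0.68 (SE 0.12, limma adjusted p = 0.00505), with -0.80 to -0.56 when each sample was left out. With edgeR the highest adjusted p among these was 0.0443, without *Pich*-WT sample 2. Macrophages are known to carry both TNF receptors, and their summed markers were 6.26-fold higher in *Pich*-WT. The summed granulocyte and monocyte markers went the other way and were 5.18-fold higher in *Pich*-KO. The part of any of these cells in the receptors' values was not tested.

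*Fadd* (ENSMUSG00000031077, chr7:144577318-144582463, minus strand), the adaptor that FAS and the TRAIL receptor share, had 369 and 424 normalized counts in *Pich*-KO against 474 and 451 in *Pich*-WT. The groups lay side by side without overlap. The means of 396 ± 39.1 (SD, n = 2) and 462 ± 16.0 (SD, n = 2) gave a log2 fold change of -0.22 (SE 0.16, limma adjusted p = 0.438). The antisense gene *Faddos* overlaps it and had 2 to 4.55 normalized counts. *Cflar* (ENSMUSG00000026031, chr1:58711508-58758884, plus strand), the FLIP gene, had 623 and 648 normalized counts in *Pich*-KO against 576 and 569 in *Pich*-WT. Both *Pich*-KO values were above both *Pich*-WT values by a small margin, with means of 635 ± 17.8 (SD, n = 2) and 572 ± 4.93 (SD, n = 2) and a log2 fold change of 0.15 (SE 0.14, limma adjusted p = 0.552). Neither gene passed the test under any alternative.

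**Figure D3:**
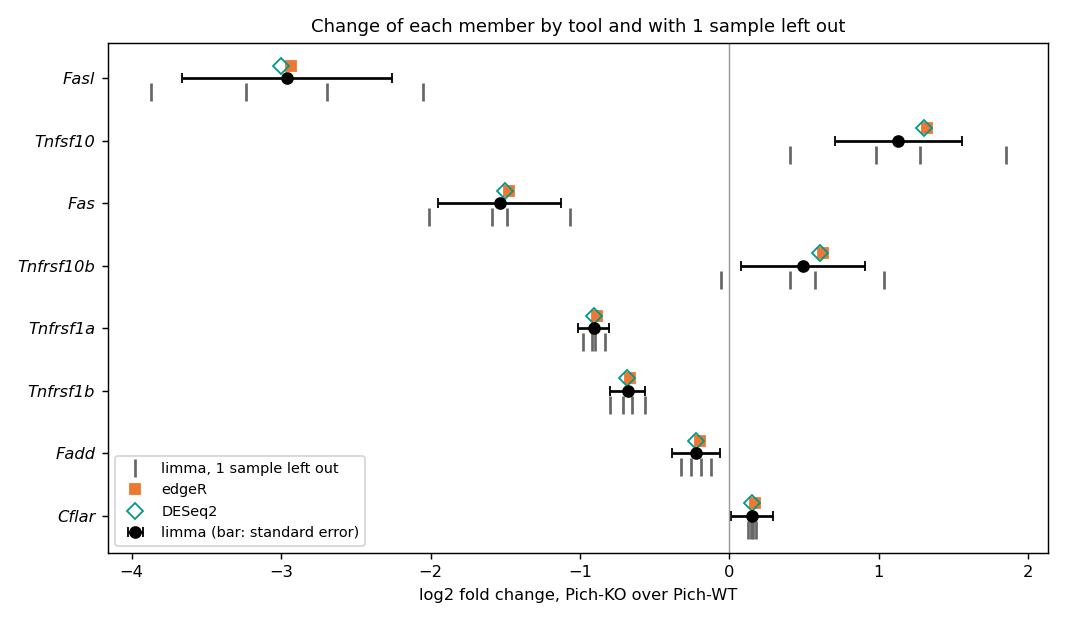
Log2 fold change of each member, *Pich*-KO over *Pich*-WT, as the limma estimate with its standard error (black), the edgeR (orange square) and DESeq2 (open diamond) estimates, and the limma estimates with each sample left out in turn (gray ticks). *Tnfrsf1a* and *Tnfrsf1b* stay close to -0.91 and -0.68, whereas *Tnfsf10* runs from 0.41 to 1.85 and *Tnfrsf10b* crosses 0.

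The order of the members was read from normalized counts per kilobase of gene length. In *Pich*-WT cells *Tnfrsf1a* came first with 1333 ± 14.1 (SD, n = 2) per kilobase, followed by *Tnfrsf1b* with 787 ± 90.3, *Fadd* with 118 ± 4.09, *Cflar* with 45.2 ± 0.39 and *Fas* with 37.4 ± 1.79. *Tnfsf10* with 20.7 ± 3.0 and *Fasl* with 15.9 ± 4.28 overlapped, and *Tnfrsf10b* was last with 7.62 ± 0.64 (SD, n = 2). In *Pich*-KO cells the first 3 places were the same, with 711 ± 50.9 for *Tnfrsf1a*, 489 ± 13.3 for *Tnfrsf1b* and 102 ± 10.03 for *Fadd* (SD, n = 2). Below them *Tnfsf10* with 51.1 ± 33.5 overlapped *Cflar* with 50.2 ± 1.40, and *Fas* with 13.2 ± 6.17 overlapped *Tnfrsf10b* with 11.6 ± 6.02. *Fasl*, which was seventh in *Pich*-WT, was last in *Pich*-KO at 1.98 ± 1.97 per kilobase (SD, n = 2). The gene length of *Cflar* joins the exons of many isoforms, which lowers its value per kilobase.

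Ratios of levels per kilobase within a sample described the balance of partners, with no test. The ratio of *Fasl* to *Fas* was 0.192 and 0.0664 in *Pich*-KO samples 1 and 2 and 0.491 and 0.358 in *Pich*-WT. Both *Pich*-KO ratios lay below both *Pich*-WT ratios but rest on few reads. *Pich*-KO sample 1 had 6 reads on *Fasl* and 29 on *Fas*, and *Pich*-KO sample 2 had 1 and 14. The ratio of *Tnfsf10* to *Tnfrsf10b* was 4.73 and 3.76 in *Pich*-KO against 3.19 and 2.31 in *Pich*-WT. Both *Pich*-KO ratios lay above both *Pich*-WT ratios. The ratio of *Cflar* to *Casp8*, the inhibitor beside its target caspase, was 0.0461 and 0.0526 in *Pich*-KO against 0.0488 and 0.0460 in *Pich*-WT, and the groups overlapped. The ratio of *Tnf* to *Tnfrsf1a* was 0.230 and 0.224 in *Pich*-KO against 0.121 and 0.113 in *Pich*-WT, with *Tnf* itself at 265 ± 23.8 and 255 ± 14.6 normalized counts (SD, n = 2).

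Around the members, 92 tested genes of 6 pathway lists were read in the same fit, of which 15 rose and 18 fell. Of all genes tested, 7.58% were called higher and 9.6% lower. With edgeR 16 pathway genes rose and 21 fell, beside 18.6% higher and 20.7% lower of all genes it tested. It tested fewer pathway genes than limma. These were 7 of the 9 other death and decoy receptors, 13 of the 14 other TNF receptors and 11 of the 13 other TNF ligands. In the remaining lists it tested the same number. Of 9 other death receptors and TRAIL decoy receptors, 1 rose and 3 fell, with a median log2 fold change of -0.32. *Tnfrsf25*, a death receptor of lymphocytes, had 49.1 and 26.1 normalized counts in *Pich*-KO against 119 and 208 in *Pich*-WT, and the fitted change was -2.10 (SE 0.40, limma adjusted p = 0.00887). *Tnfrsf26* fell by 1.49 on the log2 scale (limma adjusted p = 0.00222) and *Tnfrsf23*, a decoy receptor of TRAIL, by 1.66 (limma adjusted p = 0.0337). *Tnfrsf22*, the neighboring decoy receptor, had a log2 fold change of -0.14 (limma adjusted p = 0.746). These 3 genes are close copies of each other, so reads may be split between them, and each overlaps the antisense gene *E230032D23Rik* (7.96 to 36 normalized counts). *Eda2r*, a receptor of ectodysplasin A2, rose from 9.91 ± 2.96 to 42.0 ± 19.2 (SD, n = 2), with a fitted change of 1.93 (limma adjusted p = 0.0335). The call of *Eda2r* was lost with a pseudocount of 0.1 (adjusted p = 0.0539) and with no filter (0.0743) in limma, and in edgeR without *Pich*-KO sample 1 (0.106) or *Pich*-WT sample 1 (0.0964). *Tnfrsf23* lost its call with a pseudocount of 0.1 (adjusted p = 0.0571) and with no filter (0.0776) in limma, and in edgeR without *Pich*-WT sample 1 (0.185).

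Of 14 other TNF receptors, 0 rose and 3 fell with limma, and the median was -0.42. *Tnfrsf11a*, which encodes RANK, fell from 86.8 ± 15.3 to 20.5 ± 6.49 (SD, n = 2), with a fitted change of -2.05 (limma adjusted p = 0.00697). *Tnfrsf18*, the GITR gene of T cells, fell by 1.86 (limma adjusted p = 0.0149) and *Ltbr*, the lymphotoxin beta receptor, by 0.45 (limma adjusted p = 0.0364) on the log2 scale. Of 13 other TNF ligands, 1 rose and 2 fell, with a median of -0.18. *Tnfsf8*, the ligand of CD30, rose from 21.1 ± 5.52 to 109 ± 31.5 (SD, n = 2), with a fitted change of 2.30 (limma adjusted p = 0.00392). *Ltb*, which encodes lymphotoxin beta, had 490 and 214 normalized counts in *Pich*-KO against 1137 and 1399 in *Pich*-WT, with a fitted change of -1.96 (limma adjusted p = 0.00569). *Tnfsf12*, the TWEAK gene, fell by 2.79 on that scale (limma adjusted p = 0.0445), from 31.0 ± 17.0 to 4.39 ± 4.59 (SD, n = 2). The fitted change of *Tnfsf12* was -3.79 without *Pich*-KO sample 1 and -1.78 without *Pich*-KO sample 2 (limma), and *Ltb* was -2.56 and -1.36. The call of *Tnfsf12* was lost with a pseudocount of 0.1 (adjusted p = 0.0971) and with no filter (0.116) in limma, and in edgeR without *Pich*-KO sample 2 (0.0534) or *Pich*-WT sample 1 (0.212). *Ltbr* lost its call with no filter (limma adjusted p = 0.0561) and in edgeR without *Pich*-WT sample 1 (0.177) or 2 (0.108). *Tnf* and *Lta*, the ligands of TNF receptors 1 and 2, had log2 fold changes of 0.05 (limma adjusted p = 0.903) and -0.18 (limma adjusted p = 0.800).

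Of 24 caspases and their partners, 7 rose and 5 fell, with a median of 0.12. *Casp8*, the caspase recruited by FADD, had 2948 ± 190 and 2761 ± 93.0 normalized counts (SD, n = 2), with a fitted change of 0.09 (limma adjusted p = 0.613). *Apaf1*, the scaffold of the apoptosome, had 861 and 784 normalized counts in *Pich*-KO against 219 and 208 in *Pich*-WT, and the fitted change was 1.94 (SE 0.16, limma adjusted p = 0.000187). *Cycs*, which encodes the cytochrome c that binds it, rose by 1.17 (limma adjusted p = 0.00136), while *Casp9*, the caspase it activates, fell by 0.78 (limma adjusted p = 0.00961). *Daxx*, a FAS-binding protein that is also a histone chaperone, rose by 1.33 (limma adjusted p = 0.000508). *Pea15a*, whose product has a death effector domain, had 335 and 264 normalized counts in *Pich*-KO against 2673 and 2059 in *Pich*-WT, and the fitted change was -2.98 (SE 0.18, limma adjusted p = 6.1e-05). It overlaps *Dcaf8* on the other strand (3286 to 4116 normalized counts), and the labels name no strand-specific counting, without which reads of overlapping genes cannot be told apart. *Cradd*, an adaptor of caspase-2, fell by 0.89 (limma adjusted p = 0.0259). In edgeR *Cradd* lost its call without *Pich*-WT sample 1 (adjusted p = 0.118) or 2 (0.0805), and *Casp9* without *Pich*-WT sample 2 (0.0556).

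Of 25 genes of the signaling complex of TNF receptor 1, 5 rose and 3 fell, with a median of -0.02. *Tradd*, the adaptor next to the receptor, had 616 ± 74.7 and 621 ± 38.8 normalized counts (SD, n = 2), with a fitted change of -0.02 (limma adjusted p = 0.967) that was 0.01 with edgeR. *Traf2* had a log2 fold change of 0.16 (limma adjusted p = 0.450). *Ripk1*, the kinase of the complex, had one of -0.39 (limma adjusted p = 0.0537), which passed with edgeR (adjusted p = 0.0271), and it overlaps *Serpinb6a* on the other strand, which had 217 and 202 normalized counts in *Pich*-KO against 996 and 1078 in *Pich*-WT. The genes that fell were *Otulin*, a linear ubiquitin hydrolase, with 386 and 111 normalized counts in *Pich*-KO against 1032 and 972 in *Pich*-WT (log2 fold change -2.26, limma adjusted p = 0.0136), *Traf1* (-1.73, adjusted p = 0.0282) and *Tnfaip3*, which encodes the brake A20 (-0.82, adjusted p = 0.00463). *Otulin* overlaps *Ank* on the other strand (92.1 to 353 normalized counts). The fitted change of *Otulin* was -3.16 without *Pich*-KO sample 1 and -1.37 without *Pich*-KO sample 2 (limma), and *Traf1* was -2.33 and -1.12. With no filter limma lost the calls of *Otulin* (adjusted p = 0.0684) and *Traf1* (0.0815), and *Traf1* also with a pseudocount of 0.1 (0.0601) and in edgeR without *Pich*-WT sample 2 (0.0866). Among those that rose were the kinase genes *Tbk1* (log2 fold change 0.76, limma adjusted p = 0.00875) and *Ikbke* (0.80, adjusted p = 0.0205) and *Madd* (0.58, adjusted p = 0.0136). *Ikbke* lost its call with no filter (limma adjusted p = 0.0564) and in edgeR without *Pich*-WT sample 1 (0.0835), and *Madd* in edgeR without *Pich*-WT sample 2 (0.0534). Of 7 genes that govern shedding of TNF family proteins, 1 rose and 2 fell, with a median of -0.35. *Rhbdf1*, which encodes the ADAM17 partner iRhom1, had 33.8 and 19.3 normalized counts in *Pich*-KO against 226 and 215 in *Pich*-WT, with a fitted change of -3.06 (limma adjusted p = 0.000625). *Timp3*, an inhibitor of ADAM17, fell by 2.60 (limma adjusted p = 0.000906), and *Sppl2b*, an intramembrane protease, rose by 0.53 (limma adjusted p = 0.0259), a call lost with no filter (0.0631) and in edgeR without *Pich*-WT sample 2 (0.0966).

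**Figure D4:**
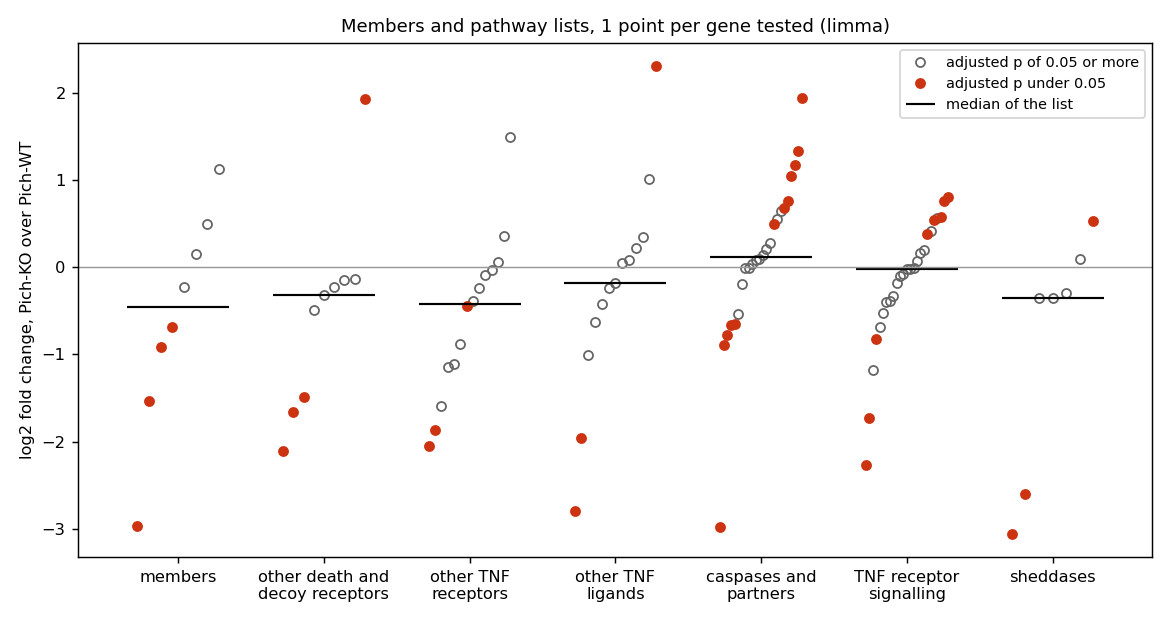
Log2 fold changes, *Pich*-KO over *Pich*-WT, of the tested genes of the 8 members and the 6 pathway lists, 1 point per gene, filled in red where the adjusted p was under 0.05, and a line at each list's median. Most lists hold genes on both sides of 0, and the medians run from -0.45 for the members to 0.12 for the caspases and their partners.

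Among 10544 genes with a mean of at least 100, those whose pattern over the 4 samples was most like a member were found by the root mean square difference of log2 values, each gene centered on its own mean. *Tnfrsf1a* was nearest to *Unkl* (0.0151), *Nfam1* (0.0167) and *Acbd3* (0.0220). *Nfam1*, which encodes an immune receptor with a signaling motif, had 3258 and 3033 normalized counts in *Pich*-KO against 6007 and 5844 in *Pich*-WT. *Tnfsf10* was nearest to *Col3a1* (0.151), *Pdgfrb* (0.170) and *Ifit2* (0.219), all with a higher value in *Pich*-KO sample 1 than in sample 2. *Ifit2*, an interferon-induced gene, had 2096 and 857 normalized counts in *Pich*-KO against 502 and 604 in *Pich*-WT, and the collagen gene *Col3a1* had 274 and 114 against 74.2 and 59.0. With 4 samples many genes can share such a pattern, and the distances are given as a description.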

How the data were processed

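Sorted fetal liver LSK cells of 2 *Pich*-KO and 2 *Pich*-WT samples gave TruSeq RNA libraries. The deposited signal of each sample is the authors' gene count over 1 size factor, and the table also holds the authors' log2 fold changes and p-values, which were not used. The submitters' processing notes name Bowtie 0.12.2 and builds mm8 and mm9, whereas the coordinates of the table are those of GRCm38 (start and end matched GENCODE M21 for 97.8% of the 39131 genes shared with it). The counter is not given in the sources used here. In every sample 100% of the values gave back whole reads (tolerance 0.01 of a read), at 14703215 to 20933919 reads per sample. Because the values are normalized, limma 3.58.1 (R 4.3.3) on log2(value + 1) with a mean of at least 1 and a variance trend was the main test, with Benjamini-Hochberg adjustment over 32428 genes. Alternatives were edgeR 4.0.16 with TMM or upper-quartile scaling and DESeq2 1.42.0 on the recovered reads, no variance trend, a pseudocount of 0.1, no filter, at least 10 reads in every sample, a replicate block and leaving out each sample, for which edgeR was added after seeing the data. The procedure was tested on simulated data that gave every gene the same dispersion. That setting differs from these replicates, so the simulation does not give the error rate of the calls here. Replicates were further apart than read sampling allows (chi-square per degree of freedom 14.7 in *Pich*-KO and 8.18 in *Pich*-WT). Genes named besides the members were those of the pathway lists with the largest changes past the threshold in each list and the direct partners of the members, chosen by symbol. The members and the lists were chosen with earlier results of these data known. Promoter sequences are from RefSeq (GRCm38.p6).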

Additional observations from a re-analysis of the deposited data

How the results depend on the processing

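Among the members, 4 lower and 0 higher were called by limma. The count of members lower was 0 without a variance trend, 2 with a pseudocount of 0.1 and 2 with no filter on the mean. *Fas* and *Fasl* lost the call with that pseudocount and with no filter. Over all genes, 2651 of 32428 were lower with the pseudocount of 0.1 and 2326 of 39186 with no filter. The count of members higher was 1 with DESeq2 and 1 with a replicate block, in both cases *Tnfsf10*. Over all genes DESeq2 called 6.69% of 39186 higher, counting genes without an adjusted p, and the block called 3122 of 32428 higher. Without a variance trend the counts were also 0 higher and 0 lower for the pathway genes and for all genes with limma, although 7377 genes had an unadjusted p under 0.05. Leaving out each sample in turn, with limma and with edgeR, gave 0 to 2 members higher and 0 to 4 lower, 0 to 20 pathway genes higher and 0 to 29 lower, and 0 to 3685 genes higher and 0 to 3917 lower over all genes. The 0 in each range is limma's, with 1 residual degree of freedom. For members called higher, edgeR gave it as well with some samples left out. The lone sample of a group is then assumed to vary like the other group. The log2 fold changes of 4 genes turned sign, and the cause was not tested. *Tradd* was 0.0103 with edgeR and TMM scaling and 0.0180 with upper-quartile scaling. With a sample left out, limma gave -0.0583 to 1.04 for *Tnfrsf10b*, -0.139 to 0.108 for *Tradd*, -0.0419 to 0.141 for *Tnf* and -0.291 to 0.00301 for *Tnfrsf22*. *Pich*-KO sample 1 decided the sign of *Tnfrsf10b*, with -0.0583 (limma) and -0.0281 (edgeR) in its absence, and edgeR called it higher without *Pich*-KO sample 2 (1.09, adjusted p = 0.0315). The other reversed values with edgeR were 0.138 for *Tradd* and -0.0117 for *Tnf* without *Pich*-KO sample 1, 0.0139 for *Tnfrsf22* without *Pich*-WT sample 1 and 0.0855 for *Tradd* without *Pich*-WT sample 2. limma gave 0.0482 for *Tradd* and -0.00889 for *Tnf* without *Pich*-WT sample 2. The labels do not say whether same-numbered samples were paired. The deviations of same-numbered samples had a correlation of 0.01 over 10544 genes, which with 2 samples per group cannot decide it. With the replicate block 4 members were lower. Over all genes 3122 were then higher and 3874 lower, against 2459 and 3113 without the block. At this depth *Fasl*, with 1 to 47 reads, and *Fas* are the least precise of the members called.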
